A study of Mus musculus with 24 samples.

Results

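The integrated stress response targets examined here are 10 genes: Atf4, Atf5, Ddit3, Trib3, Asns, Chac1, Mthfd2, Gdf15, Fgf21 and Hspa5. They were found by matching these symbols to the Ensembl identifiers of the deposited count table, in which all 10 of 10 were present among 41388 mouse genes. The rule itself uses symbols alone, but the set was chosen with earlier results of these data known. They were followed in heart RNA from wild-type male Balb/c mice (the BALB/cAnNCrl substrain in the methods of the study), immunized as young adults, with experimental autoimmune myocarditis (EAM) and from control mice. EAM was induced with a myosin heavy chain peptide, given on days 0 and 7 and emulsified in supplemented complete Freund's adjuvant (SCFA), together with pertussis toxin (PTX) on day 0. Control mice were given the same SCFA and PTX with PBS in place of the peptide, so every heart, controls included, came from a mouse exposed to SCFA and PTX. Hearts were taken at day 10, 15 or 21 after the first immunization (D10, D15 and D21), with 4 EAM and 4 control hearts at each time point and 24 in all. Each library was made from a portion of 1 heart. The study picked samples for RNA that showed inflammation as far as it could, since myocarditis may not develop in every immunized mouse. EAM hearts were thus selected on inflammation where it was present.

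The integrated stress response is a shared pathway through which cells answer amino acid shortage, unfolded protein in the endoplasmic reticulum (ER), viral RNA, haem deficiency and mitochondrial failure. Each of these stresses activates a kinase that phosphorylates the translation factor eIF2, which slows protein synthesis while allowing translation of a few messages, among them those of the transcription factors ATF4, ATF5 and CHOP (the product of Ddit3). ATF4 then drives genes for amino acid uptake and synthesis, one-carbon metabolism, redox balance and secreted stress hormones. In heart muscle the pathway is best known for its response to mitochondrial disease, in which GDF15 and FGF21 are released into the blood. ATF4 and ATF5 are controlled largely by translation, so their messenger RNA is only part of their regulation, whereas Ddit3 is induced chiefly by transcription, as a target of ATF4 among others.

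ATF4 binds with C/EBP partners to a C/EBP-ATF response element, and the ER chaperone gene Hspa5 is the classic carrier of the ER stress response element, so the promoters were searched for the cores of both. The letters TGATGNAA (reverse complement TTNCATCA), and CCAAT followed after 9 free letters by CCACG, were looked for on both strands from 250 bases before to 50 bases after the start site, in promoters of the RefSeq annotation of GRCm38.p6. The first was found in the windows of Asns, Chac1, Trib3 and Fgf21, which are 4 of 10 members (40%), and in 3.97% of 32851 promoters. The second was found in the window of Hspa5 alone among the members, and in 0.119% of promoters. The share of members counts genes, with an extra window each for Atf5 and Gdf15, whereas the share of promoters counts windows. The 5 stretches printed here are shown because they carry these matches, which are in capitals, and each reads 5′ to 3′ on the strand of the gene. For Asns, Chac1 and Hspa5 the 250 bases before the start are given, at chr6:7693210-7693459 on the minus strand, chr2:119350992-119351241 on the plus strand and chr2:34771840-34772089 on the plus strand. For Trib3 (chr2:152344028-152344057, minus strand) and Fgf21 (chr7:45615611-45615640, minus strand) 30 bases around the match are given.
Asns: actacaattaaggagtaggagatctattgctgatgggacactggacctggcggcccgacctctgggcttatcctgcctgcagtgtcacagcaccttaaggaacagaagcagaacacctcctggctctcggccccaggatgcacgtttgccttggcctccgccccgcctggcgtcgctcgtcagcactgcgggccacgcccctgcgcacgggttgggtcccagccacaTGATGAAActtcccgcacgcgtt
Chac1: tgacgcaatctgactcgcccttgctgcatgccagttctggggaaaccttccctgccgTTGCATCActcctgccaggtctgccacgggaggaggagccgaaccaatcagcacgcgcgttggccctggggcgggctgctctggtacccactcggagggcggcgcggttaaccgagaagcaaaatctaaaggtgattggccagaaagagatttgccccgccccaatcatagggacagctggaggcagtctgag
Hspa5: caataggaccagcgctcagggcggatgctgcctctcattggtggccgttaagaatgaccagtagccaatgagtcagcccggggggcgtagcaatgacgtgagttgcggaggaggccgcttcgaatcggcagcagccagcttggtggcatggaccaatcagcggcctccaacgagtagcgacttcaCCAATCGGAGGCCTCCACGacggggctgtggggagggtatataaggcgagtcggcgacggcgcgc
Trib3: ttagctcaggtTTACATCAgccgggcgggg
Fgf21: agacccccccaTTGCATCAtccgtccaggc
Counted from the start site, the match ran from position -23 to -16 in Asns, from -193 to -186 in Chac1, from -139 to -132 in Fgf21 and from 15 to 22 in Trib3. In Chac1, Fgf21 and Trib3 it stood on the opposite strand, so the reverse complement is what appears in capitals. The 19-letter element of Hspa5 ran from -65 to -47 and did not overlap a match of the shorter one. The windows of Atf4, Atf5, Ddit3, Mthfd2 and Gdf15 held neither string of letters.

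**Figure D1:**
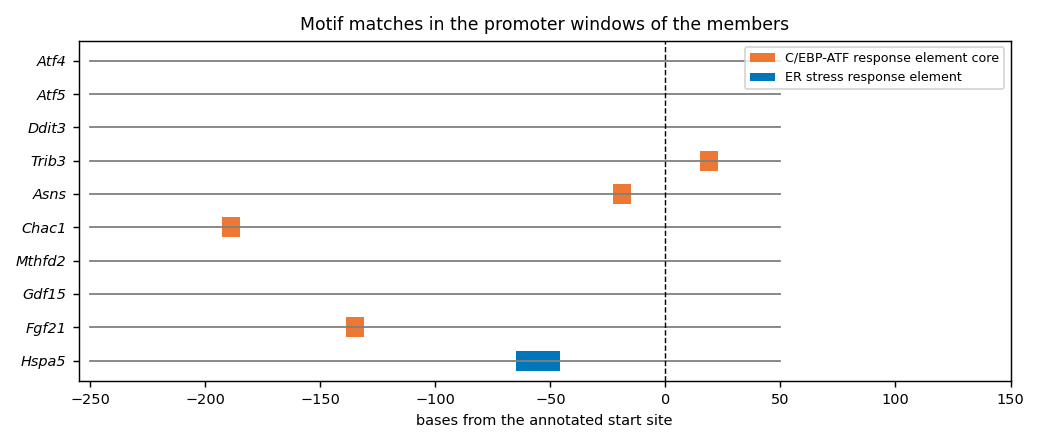
Positions of the motif matches in the promoter windows of the 10 members, in bases from the annotated start site (dashed line); each grey line is the window searched, from 250 bases before to 50 bases after the start. Orange blocks are matches of the C/EBP-ATF response element core, in Trib3, Asns, Chac1 and Fgf21, and the blue block is the ER stress response element of Hspa5.

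Total counts per library lay between 15814863 and 24980864, with a median of 19469782.5. Levels are given as CPM, the count of a gene scaled to the size of its library, after TMM normalization over all 24 libraries, in the order of replicates 1 to 4. The 16 leukocyte markers summed to 3410.4 to 5083 CPM in EAM against 453 to 535 CPM in control hearts at D15, and to 1283 to 4181 against 395 to 679.8 CPM at D21. The 10 cardiomyocyte markers summed to 9157 to 23152 against 34254 to 39321 CPM at D15 and to 16976 to 39094 against 35085 to 37219 CPM at D21, with none of the markers at 0. The 8 fibroblast markers summed to 8321 to 17329 against 2025 to 2599.8 CPM at D15. Their sums were 5117 to 15366.5 against 2345 to 2974 CPM at D21. At D10 replicate 1 stood apart from the other EAM hearts, with 194 CPM of the pan-leukocyte gene Ptprc against 27.7, 56.7 and 41.6 CPM in the rest. Markers of the atria, part of the heart that may or may not be in the portion taken, also differed between groups. The 4 atrial markers summed to 55.6 to 180.3 CPM in EAM hearts and 1669.6 to 2572 CPM in the controls at D21, and to 576 to 1865 and 209 to 506 CPM at D10. At D15 they overlapped (515 to 1620.03 CPM in EAM, 239.9 to 2329 CPM in control hearts). The 4 D21 EAM libraries also carry another library code than the other 20, so at D21 the code and the disease cannot be told apart. In RNA from a piece of whole heart, a change in the number of cells of a type and a change in RNA per cell cannot be told apart either.

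In the 12 control hearts the members spanned a wide range of abundance. On the RPKM scale, which is CPM divided by exon length, Hspa5 stood highest at 152 ± 25.4 (SD, n = 12), followed by Atf5 at 47.5 ± 3.64 and Atf4 at 38.6 ± 3.17. Ddit3 was at 7.39 ± 0.545 RPKM. Chac1 (2.67 ± 1.22), Gdf15 (2.45 ± 1.02), Trib3 (2.08 ± 0.256), Asns (1.43 ± 0.208) and Mthfd2 (1.13 ± 0.0861) formed a low group in RPKM. Fgf21 was last at 0.0413 ± 0.0554 RPKM, which rests on a few reads. The ranges of neighbours in this order overlapped for Atf5 and Atf4, and for each step from Chac1 down to Mthfd2. They did not overlap between Hspa5 and Atf5, between Atf4 and Ddit3, between Ddit3 and Chac1, or between Mthfd2 and Fgf21.

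EAM and control hearts were compared at each time point with edgeR's quasi-likelihood test on genes that reached 10 reads in 4 or more of the 8 hearts, which kept 9 of the 10 members at every time point and left out Fgf21. FDR is the Benjamini-Hochberg adjusted p over all genes kept. A gene was called induced or repressed at an FDR under 0.01 with at least a 2-fold change, the limits of the study. A member past the FDR limit with a smaller change is said to have risen or fallen but is not called. The 3 members called at D15 were Mthfd2, Gdf15 and Asns, against 18.1% of 15693 genes called induced and 12.9% called repressed. At D21 the 3 called were Gdf15, Mthfd2 and Ddit3, against 4.13% of 15266 genes called induced and 1.16% called repressed. No member was repressed at either time point by these limits. With an FDR under 0.05 and no fold limit, 6 of 9 members passed at D15 (5 higher, and Atf5 lower) against 38.1% of genes higher and 36.4% lower, and 7 at D21, all higher, against 18.5% and 13.8%. At D10 the count was 0, against 0% of 15029 genes, and also 0 with DESeq2, which called 0.319% of all genes higher and 0.0266% lower, and with edgeR's likelihood ratio test, which called 0.299% of all genes higher and 0.0133% lower. At an unadjusted p under 0.05, 4 of 9 members were higher at D10 (Gdf15, Hspa5, Mthfd2 and Atf4), against 9.71% of genes, and 0 were lower, against 5.54%.

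**Figure D2:**
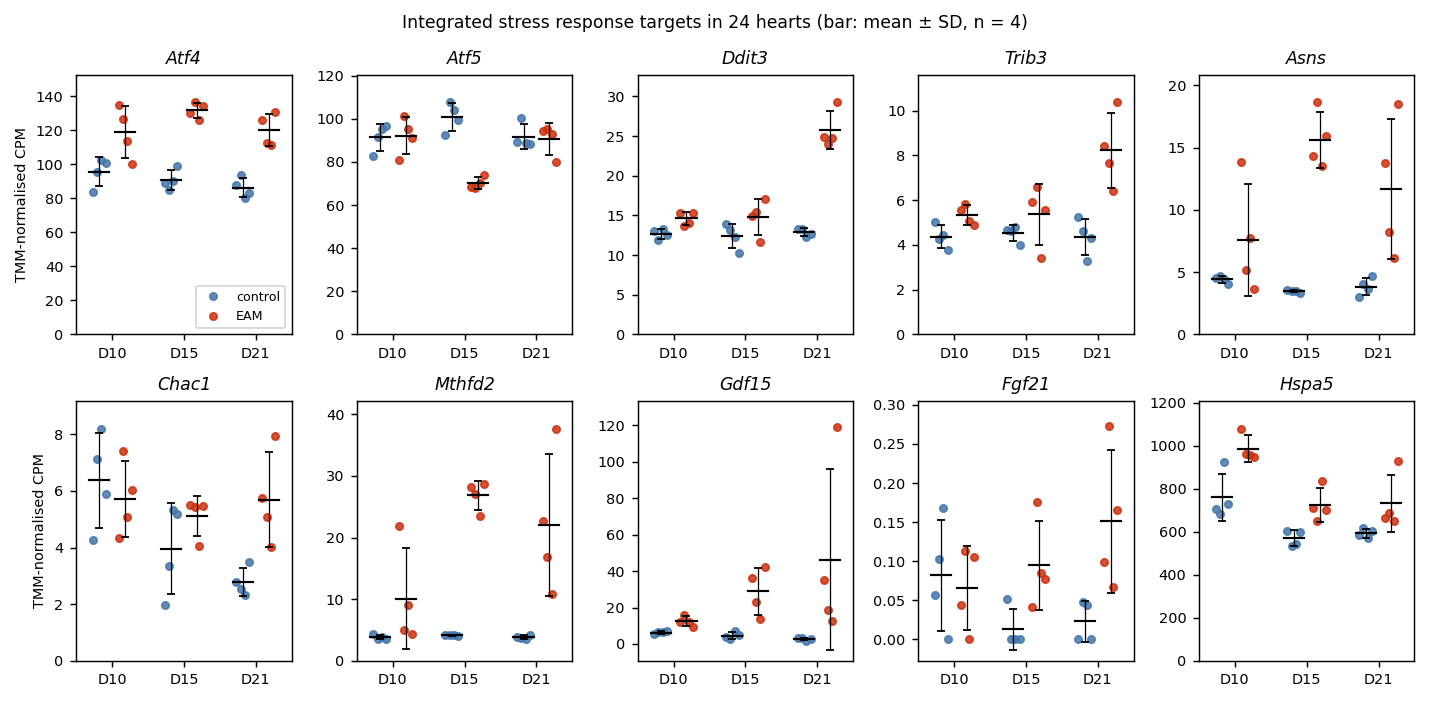
TMM-normalised CPM of each member in all 24 hearts by time point; points are single hearts (blue control, red EAM), and black bars are the mean ± SD of 4 hearts. Each panel has its own linear scale. Mthfd2, Asns and Gdf15 lie above the controls in all EAM hearts at D15 and D21, Atf5 lies below them at D15, and Ddit3 lies above them with a clear gap at D21.

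Atf4 (chr15:80255184-80257541, plus strand), the main effector of the pathway, rose by less than 2-fold. At D15 the EAM hearts held 129.9, 136, 126 and 134 CPM and the control hearts 88.9, 84.7, 90.4 and 99.2 CPM. At D21 they held 126, 112, 112 and 131 CPM against 88.1, 93.6, 80.4 and 83.2 CPM. All EAM hearts lay above all controls on both days, with a rise of 1.49-fold at D15 (log2 0.58 ± 0.066 SE, FDR = 4.26e-05) and 1.41-fold at D21 (log2 0.50 ± 0.094 SE, FDR = 0.00876). The D21 value did not pass with the replicate number as a block (FDR = 0.0199) or when libraries were scaled by total counts (FDR = 0.0103). At D10 the values were 135, 127, 113 and 100.004 CPM in EAM hearts and 83.5, 95.6, 103 and 101 CPM in the controls, which overlapped (log2 0.30 ± 0.11 SE, FDR = 0.328). Of all genes tested, 33.2% rose past the FDR limit at D15 and 4.71% at D21, where 3.1% fell.

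Atf5 (chr7:44812256-44816658, minus strand), a relative of ATF4 known for its part in the mitochondrial unfolded protein response, was the one member that fell. At D15 the EAM hearts had 68.4, 67.8, 70.2 and 74.1 CPM of Atf5 and the controls 92.5, 108, 104 and 99.3 CPM, so every EAM heart was below every control. The fall was 1.40-fold (log2 -0.49 ± 0.065 SE, FDR = 1.14e-04), a direction that 31.1% of genes took past the FDR limit at D15. At D10 and D21 the groups overlapped, with 80.95, 101, 95.2 and 91.2 CPM in EAM against 82.7, 91.4, 95.4 and 96.5 CPM in control hearts at D10. At D21 the values were 94.5, 95.3, 93.1 and 79.8 CPM and 89.1, 100.3, 88.98 and 88.4 CPM (log2 0.0029 ± 0.081 SE, FDR = 0.981). The effect of EAM on Atf5 at D15 differed from that at D10 by -0.54 ± 0.11 (SE) on the log2 scale (FDR = 0.00198) and that at D21 from D15 by 0.51 ± 0.11 (SE, FDR = 0.00308; with the replicate block 0.0102). In Atf5, 82 exonic bases (4.11%) lie opposite the exons of Il4i1, a gene on the other strand whose D15 means were 7.22 ± 0.784 CPM (SD, n = 4) with EAM and 4.87 ± 0.364 CPM without. The library kit keeps strand, and whether the counting used it is not stated in those sources consulted here.

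Ddit3 (chr10:127290774-127296288, plus strand), which encodes the pro-apoptotic factor CHOP, rose at D21. Its levels there were 24.9, 23.97, 24.7 and 29.2 CPM in EAM against 13.3, 13.3, 12.3 and 12.6 CPM in control hearts, groups that each spread over a few CPM and lay far apart. The change of 2.03-fold (log2 1.02 ± 0.10 SE, FDR = 0.00315) was just past the 2-fold limit. It fell just under that limit, and the call ended, without the filter on low counts (log2 0.99) and with all 24 samples in 1 fit (log2 0.997). At D15 the levels were 14.9, 15.5, 11.7 and 17.01 CPM in EAM hearts and 13.9, 13.2, 12.3 and 10.3 CPM in the controls, which overlapped through replicate 3 of the EAM group (log2 0.29 ± 0.14 SE, FDR = 0.0785). The D10 levels were 15.3, 13.7, 14.1 and 15.4 CPM against 13.01, 11.9, 13.3 and 12.6 CPM, with no overlap but a small difference (log2 0.19 ± 0.09 SE, FDR = 0.336). The effect of EAM was larger at D21 than at D15 by 0.75 ± 0.15 (SE) on the log2 scale (FDR = 0.00212). That difference was at an FDR of 0.0125 with the replicate block and of 0.0152 with total counts. It cannot be told apart from the library code, which only the D21 EAM hearts do not share. Ddit3 shares 68 exonic bases with Mars on the opposite strand, whose D21 means were 60.1 ± 4.53 CPM (SD, n = 4) with EAM and 60.8 ± 0.729 CPM without.

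Trib3 (chr2:152337422-152344032, minus strand) encodes a pseudokinase induced by ATF4 and CHOP that feeds back on them. It did not pass the FDR limit at any time point, although at D21 DESeq2 gave an FDR of 2.57e-04 with a change under 2-fold. At D21 it was at 8.43, 7.68, 6.41 and 10.4 CPM in EAM hearts and 5.24, 4.61, 3.28 and 4.30 CPM in the controls, with all EAM hearts above (log2 0.94 ± 0.21 SE, FDR = 0.0133). At D15 it ranged from 3.42 to 6.58 CPM in EAM hearts and 4.004 to 4.82 CPM in the controls, and at D10 from 4.91 to 5.83 and 3.77 to 5.02 CPM, with overlap on both days.

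Asns (chr6:7675169-7693254, minus strand), asparagine synthetase, was among the strongest of the members at D15. Its level was 14.3, 18.6, 13.5 and 15.97 CPM in EAM against 3.59, 3.48, 3.47 and 3.36 CPM in control hearts. The lowest EAM heart was thus far above the highest control, a 4.61-fold rise (log2 2.20 ± 0.12 SE, FDR = 4.73e-07). At D21 the EAM hearts spread widely, with 13.7, 8.23, 6.15 and 18.5 CPM against 2.999, 4.08, 3.63 and 4.66 CPM. All 4 remained above the controls, and the 3.11-fold difference (log2 1.63 ± 0.35 SE) was just outside the limit at an FDR of 0.0128, while DESeq2 gave 9.28e-05. At D10 the levels were 13.9, 5.16, 7.74 and 3.64 CPM in EAM hearts and 4.57, 4.66, 4.44 and 4.03 CPM in the controls, so that replicates 1 and 3 were well above the controls and replicate 4 was below them (log2 0.77 ± 0.37 SE, FDR = 0.338). Without replicate 1 the D10 difference was 0.30 on the log2 scale (FDR = 0.609).

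Mthfd2 (chr6:83305691-83325908, minus strand) encodes a mitochondrial enzyme of folate-dependent one-carbon metabolism that is low in most adult tissues and high in dividing and activated immune cells. At D15 its level was 28.2, 27.1, 23.5 and 28.7 CPM in EAM hearts and 4.22, 4.13, 4.25 and 4.06 CPM in the controls. This change had the smallest standard error of those called, at 6.62-fold (log2 2.73 ± 0.093 SE, FDR = 2.65e-08). At D21 the EAM hearts held 22.8, 16.9, 10.8 and 37.7 CPM against 3.86, 3.70, 3.59 and 4.25 CPM. They rose by 5.86-fold (log2 2.55 ± 0.37 SE, FDR = 0.00526) with more spread than at D15, all above the controls. At D10 the levels were 21.96, 4.99, 9.02 and 4.38 CPM and 4.40, 3.59, 3.82 and 3.57 CPM. Replicate 1, the heart with the most Ptprc, was highest, and replicate 4 lay within the controls (log2 1.39 ± 0.48 SE, FDR = 0.328; without replicate 1, 0.66 and FDR = 0.429). Summed over 6 proliferation markers, a list added after the values were seen, the D15 hearts held 187 to 277 CPM in EAM hearts and 29.8 to 44.8 CPM in the controls, and the D21 hearts 70.01 to 221 and 41.99 to 69.5 CPM. The part of dividing cells and leukocytes in the Mthfd2 and Asns levels was not tested.

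Chac1 (chr2:119351229-119354381, plus strand), which encodes a glutathione-degrading enzyme downstream of ATF4 and CHOP, had control levels that varied by time point. These were 4.28, 7.12, 8.20 and 5.88 CPM at D10, 1.98, 3.36, 5.33 and 5.18 CPM at D15 and 2.80, 2.54, 2.32 and 3.48 CPM at D21. The EAM hearts held 4.33, 7.42, 5.07 and 6.02 CPM at D10, 5.49, 5.43, 4.05 and 5.48 CPM at D15 and 5.76, 5.07, 4.01 and 7.94 CPM at D21. The EAM means were 5.71 ± 1.33, 5.11 ± 0.708 and 5.70 ± 1.66 CPM (SD, n = 4), and of the 3 days the groups did not overlap only at D21, when the control mean was lowest. The D21 difference was 2.09-fold (log2 1.06 ± 0.25 SE) and did not pass (FDR = 0.0157), while DESeq2 gave an FDR of 6.81e-04. Between control hearts, the log2 change from D10 to D21 was -1.20 ± 0.27 (SE) at an FDR of 0.0343. DESeq2 placed that difference past the limits (FDR = 0.00232). The D10 controls were also the group with 209 to 506 CPM of atrial markers against 1669.6 to 2572 CPM in the D21 controls, and the part of tissue sampling in this was not tested.

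Gdf15 (chr8:70629393-70632456, minus strand), a secreted hormone of the TGF-beta superfamily that acts on the brainstem to lower appetite, had the largest change of any member. At D21 the EAM hearts held 35.2, 18.6, 12.5 and 119 CPM and the control hearts 3.15, 3.36, 1.88 and 2.71 CPM. The rise was 17.2-fold (log2 4.11 ± 0.75 SE, FDR = 0.00804), and replicate 4 alone supplied more than the other EAM hearts together. Without replicate 4 the log2 value was 3.02 (FDR = 0.00621). At D15 the levels were 36.3, 22.8, 13.9 and 42.4 CPM against 3.70, 2.66, 7.35 and 4.71 CPM, a rise of 6.41-fold (log2 2.68 ± 0.40 SE, FDR = 2.36e-04) in all 4 hearts. At D10, Gdf15 was already above the controls in every EAM heart, with 12.3, 16.03, 11.8 and 9.45 CPM against 5.25, 6.56, 6.35 and 6.87 CPM. That difference was 1.96-fold (log2 0.97 ± 0.17 SE) with an unadjusted p of 3.24e-04 in edgeR's quasi-likelihood test and an FDR of 0.271. DESeq2 gave an FDR of 4.77e-04 for the same value, at a log2 change of 0.99, still under 2-fold. The highest Gdf15 at D10 was in replicate 2, the EAM heart with the least Ptprc (27.7 CPM, within the controls' 23.9 to 38.6 CPM). All 4 D10 EAM hearts also had more atrial marker RNA than the D10 controls, with 1575, 1249.7, 576 and 1865 CPM in replicates 1 to 4, and its part in the D10 differences of Gdf15, Ddit3 and Hspa5 was not tested.

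Fgf21 (chr7:45613886-45615490, minus strand), a stress hormone released mainly by the liver, was barely detected. Over the 4 hearts of a group it had 5 reads in EAM and 6 in control hearts at D10, 10 and 1 at D15, and 11 and 2 at D21, with at most 5 reads in any heart. The 7 hearts with 0 reads could still hold up to 3 counts, which is 0.152 to 0.198 CPM in those libraries, a limit for counting error only. The exact two-sided permutation test of mean CPM, with p taken as 2 times the smaller one-sided p, gave p = 0.686 at D10, p = 0.0571 at D15 and p = 0.0286 at D21, the last of these being the smallest p that 4 against 4 hearts can give. With 1 heart left out the test is 3 against 4, in which no p under 0.0571 is possible by this definition, so it cannot be used to check the D21 value. At D21 the EAM hearts held 0.0985, 0.272, 0.0668 and 0.166 CPM and the controls 0, 0.0480, 0.0437 and 0 CPM. No fold is given at these depths. For comparison on the CPM scale, Gdf15 was at 46.4 ± 49.5 CPM (SD, n = 4) in the same EAM hearts.

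Hspa5 (chr2:34771970-34777547, plus strand) encodes BiP, the major chaperone of the ER lumen, and is the most abundant member. It was at 713, 651, 835 and 699 CPM in EAM hearts and 604, 536, 545 and 601 CPM in the controls at D15. All EAM hearts were above the controls and the rise was 1.30-fold (log2 0.38 ± 0.10 SE, FDR = 0.00678). The FDR rose above 0.01 when a control (replicate 1, 2, 3 or 4) or EAM replicate 1 was left out (FDR from 0.0106 to 0.0209), with the replicate block (FDR = 0.0212) and with all 24 samples in 1 fit (FDR = 0.0108). At D21 the levels were 663, 687, 652 and 931 CPM against 583, 616, 569 and 604 CPM (log2 0.33 ± 0.14 SE, FDR = 0.104), and at D10 1079, 962, 955 and 948 CPM against 706, 681, 923 and 728 CPM (log2 0.36 ± 0.12 SE, FDR = 0.328). The groups did not overlap on any of the 3 days. Across the control hearts, the log2 changes from D10 were -0.41 ± 0.11 (SE) at D15 and -0.36 ± 0.11 (SE) at D21, with FDRs of 0.246 and 0.155.

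**Figure D3:**
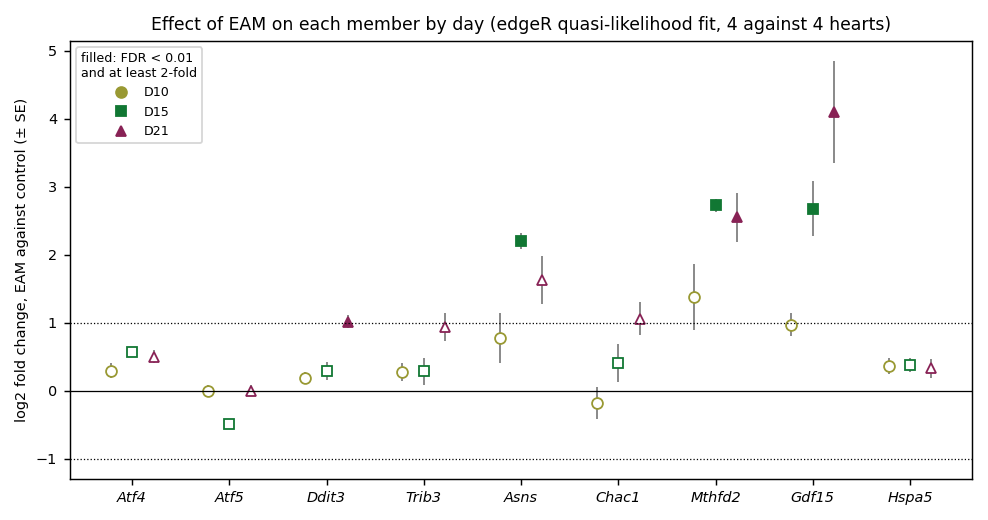
Fitted log2 fold change of EAM against control hearts for the 9 members tested, at D10 (circles), D15 (squares) and D21 (triangles); grey bars are standard errors and dotted lines mark 2-fold. Filled symbols are members called at FDR under 0.01 with at least 2-fold: Asns, Mthfd2 and Gdf15 at D15, and Ddit3, Mthfd2 and Gdf15 at D21.

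Counting members whose 4 EAM hearts all lay above all 4 controls gave 3 of 9 at D10 (Ddit3, Gdf15 and Hspa5), against 4.41% of all genes tested. The count was 5 of 9 at D15, against 34.5%, and 8 of 9 at D21, against 17.8%. Only Atf5 lay wholly below the controls, at D15, which 35.9% of genes did. The median log2 change of the 9 members came to 0.30 (D10), 0.41 (D15) and 1.02 (D21), beside medians of all genes tested of -0.0079, 0.016 and -0.0064. Scaling to total counts in place of TMM raised the median of all genes at D15 by 0.15, and left the direction of all 9 members at D15 as it was.

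Between time points, no member's EAM effect differed by enough to pass both limits. From D10 to D15 the count was 0, against 5.38% of 16318 genes higher and 7.35% lower, with 3 members higher and 1 lower at an unadjusted p under 0.05, beside 24% and 30.3% of genes. At an FDR under 0.01 alone 1 passed, Atf5, beside 9.37% of genes higher and 16.7% lower, and at 0.05 there were 2, Asns and Atf5, beside 19.7% and 26.6%. DESeq2 counted 1, Asns, beside 8.05% of all genes higher and 7.67% lower. From D15 to D21 it was 0, against 2.74% higher and 0.919% lower, with 3 higher at an unadjusted p under 0.05 beside 23.4% of genes (17.3% lower), and 0 with DESeq2, beside 3.64% of all genes higher and 1.54% lower. At an FDR under 0.01 alone 2 passed, Atf5 and Ddit3, beside 8.47% higher and 3.66% lower, and the same 2 did at 0.05, beside 17.8% and 10.4%. The largest of these differences were those of Gdf15, 1.66 ± 0.72 (SE) from D10 to D15 (FDR = 0.0639) and 1.42 ± 0.73 (SE) from D15 to D21 (FDR = 0.146) on the log2 scale. For Asns the D15 effect exceeded the D10 effect by 1.38 ± 0.46 (SE, FDR = 0.0189) and for Mthfd2 by 1.29 ± 0.54 (SE, FDR = 0.0548). Both passed the limits without D10 EAM replicate 1, at 1.85 (FDR = 6.68e-04) and 2.02 (FDR = 4.41e-04), which is 2 members in place of 0, beside 12.3% of all genes higher and 10.7% lower in place of 5.38% and 7.35%. Among control hearts, 0 members passed between D10 and D15, with 0 higher and 2 lower at an unadjusted p under 0.05, and 0 with DESeq2, beside 0.104% of all genes higher and 0.214% lower. Between D10 and D21 the count was also 0, with 0 higher and 3 lower, and DESeq2 counted 1, Chac1, beside 0.46% of all genes higher and 0.319% lower. Of all genes, 0.00613% were higher and 0.0858% lower at D15 than at D10 by both limits, and 0.123% higher and 0.0919% lower at D21. At an unadjusted p under 0.05 the shares were 3.45% and 3.24% at D15, and 7.52% and 4.68% at D21. At an FDR under 0.05 with no fold limit Chac1 passed at D21, beside 0.809% and 0.472%.

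The D21 calls depended on which libraries entered. Without control replicate 1, 2, 3 or 4, or without EAM replicate 1, no member was called, and between 0 and 14 of all genes were. Leaving out EAM replicate 2 left Ddit3, beside 0.053% of all genes higher and 0.212% lower, and leaving out EAM replicate 4 left Mthfd2 and Gdf15, beside 1.98% of all genes higher and 0.903% lower. Without EAM replicate 3, the EAM heart with the least leukocyte marker RNA, 6 members were called (Ddit3, Trib3, Asns, Chac1, Mthfd2 and Gdf15), beside 9.78% of all genes higher and 3.5% lower. Over the 8 libraries left out, the fitted log2 change lay between 0.94 and 1.06 for Ddit3, between 2.15 and 2.77 for Mthfd2 and between 3.02 and 4.41 for Gdf15, the lowest value being without EAM replicate 4 for each of the 3. DESeq2 called 5 members, adding Asns and Chac1, beside 8.93% of all genes higher and 2.42% lower, and the likelihood ratio test called the same 5, beside 8.88% of all genes higher and 2.7% lower. Without the filter on low counts Asns, Mthfd2 and Gdf15 were called, beside 3.54% of all genes higher and 0.832% lower, and with all 24 samples in 1 fit these and Chac1, beside 9.28% of all genes higher and 2.73% lower. At D15 the same 3 members were called with each of the 8 libraries left out. Of the rises under 2-fold, that of Atf4 at D21 kept an FDR under 0.01 only without EAM replicate 3 (0.00265) and was between 0.0122 and 0.0340 without any of the other 7 libraries. The differences between time points of Atf5 and Ddit3 kept an FDR under 0.01 with each of 16 libraries left out.

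Within the D21 EAM group most members ranked the hearts alike. Ptprc was at 149, 96.3, 48.9 and 228 CPM in replicates 1 to 4. Atf4, Trib3, Asns, Chac1, Mthfd2 and Gdf15, 6 of 9 members tested, placed the 4 hearts in the same order as Ptprc, and 8 of 9 were highest in replicate 4, Atf5 being the exception. The sum of all 16 leukocyte markers gave another order, with 4181, 2096, 1283 and 3789.6 CPM in replicates 1 to 4, so that replicate 1 was highest, which it was for 0 of the 9 members. The same order as Ptprc was found for 0 of 9 members at D10 and for 1 of 9, Chac1, at D15. Myh6, a myosin gene of cardiomyocytes, was at 4891, 7543, 11691 and 4081 CPM in these D21 hearts, against 11987, 12059, 12144 and 10482 CPM in the controls. Replicate 3 had cardiomyocyte marker RNA (39094 CPM) above the range of the controls. There Ddit3 was at 24.7 CPM, Mthfd2 at 10.8 CPM and Gdf15 at 12.5 CPM, each above every control. Its leukocyte markers (1283 against 395 to 679.8 CPM) and fibroblast markers (5117 against 2345 to 2974 CPM) were above every control too. The part of these cells in its levels was not tested. These orders are a description of 4 hearts.

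**Figure D4:**
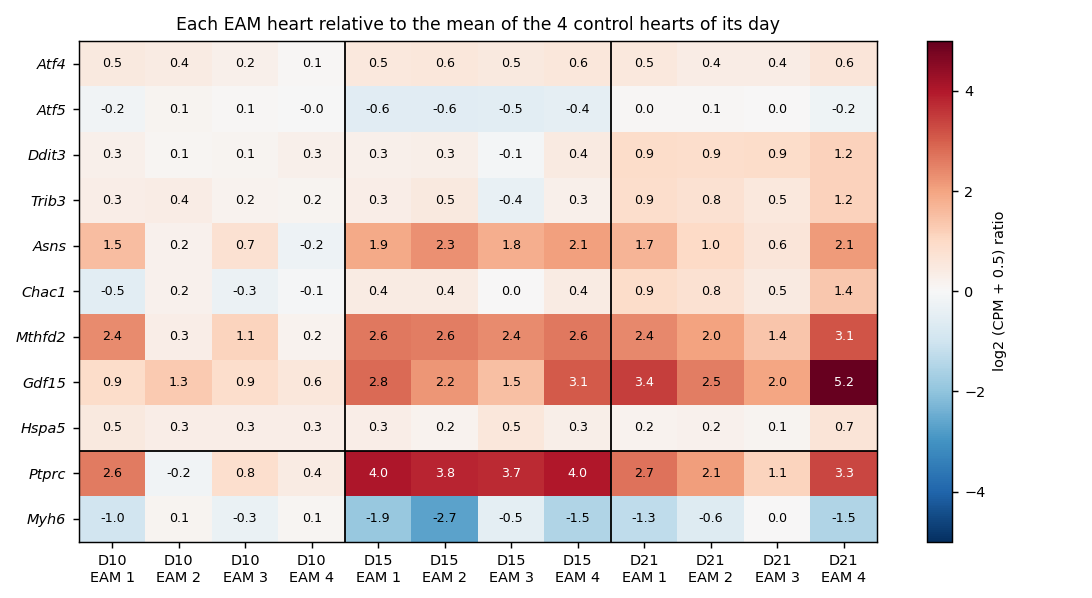
Log2 ratio of each EAM heart to the mean of the 4 control hearts of its day, after adding 0.5 CPM to both, for the 9 members tested and for Ptprc (leukocytes) and Myh6 (cardiomyocytes). Red is higher and blue lower than the controls; at D21 replicate 3 is the palest and replicate 4 the deepest red for Asns, Mthfd2, Gdf15 and Ptprc, while Atf5 is blue across D15.

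The rest of the pathway was read from 8 lists with 111 genes, of which 106 were tested at D15. There, 27 were called induced and 7 repressed, beside 18.1% and 12.9% of all genes. At D21, 1 of 106 was called induced and 1 repressed, beside 4.13% and 1.16%. Leaving out 1 library at a time gave between 0 called (without any of the 4 controls, EAM replicate 1 or EAM replicate 2) and 14 (without EAM replicate 3). Of all genes, 9.78% were called higher and 3.5% lower without EAM replicate 3, and 0.053% and 0.212% without EAM replicate 2. With the replicate block 3 were called induced, Slc7a11 and Atf3 among them, and Aldh1l2 was no longer called. At D10, 0 of 107 were called by edgeR's quasi-likelihood test, and 29 were higher and 2 lower at an unadjusted p under 0.05, beside 9.71% and 5.54% of all genes. DESeq2 counted 1 at D10, beside 0.319% of all genes higher and 0.0266% lower. At D21 it counted 13 (11 higher, 2 lower), beside 8.93% and 2.42%. In the same D15 hearts 14 of 16 leukocyte markers were called induced, and the part of leukocytes in the changes of these lists was not tested.

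Of 17 sensors and regulators of eIF2 tested at D15, 5 rose and 5 fell past the FDR limit, shares near those of all genes (33.2% and 31.1%). Of these 1 was induced and 1 repressed by 2-fold, with a median log2 change of 0.019. Ppp1r15b, the constitutive subunit that guides dephosphorylation of eIF2, rose by 1.43 ± 0.06 (SE, FDR = 9.19e-08), and Dele1, which relays mitochondrial stress to the pathway, fell with a log2 change of -1.60 ± 0.22 (SE, FDR = 1.35e-04). The interferon-inducible kinase gene Eif2ak2 (PKR) rose by 0.92 ± 0.096 (SE, FDR = 2.54e-05). Ppp1r15a, the stress-induced counterpart of Ppp1r15b and a CHOP target, was at 0.25 ± 0.087 (SE) at D15 (FDR = 0.0271) and 0.016 ± 0.16 (SE) at D21 (FDR = 0.944).

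Among 11 other targets and partners of ATF4 and CHOP, 5 were induced and 2 repressed at D15 (all genes 18.1% and 12.9%), with a median log2 change of 0.79. Atf3, a stress-induced repressor of the same family, rose from 6.04 ± 0.706 to 46.5 ± 5.06 CPM (SD, n = 4; log2 2.98 ± 0.11 SE, FDR = 3.91e-08). Cebpb (2.74 ± 0.19 SE), Nupr1 (2.60 ± 0.15 SE) and Sesn2 (1.63 ± 0.12 SE) were also induced at D15, on the log2 scale. Vldlr (-1.62 ± 0.27 SE) and Stc2 (-1.30 ± 0.15 SE) were repressed. At D21 none of the 11 was called (all genes 4.13% and 1.16%), with Atf3 at 1.80 ± 0.36 (SE, FDR = 0.0105). With the replicate block Atf3 was called induced at D21.

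Amino acid transporters gave 4 induced and 0 repressed of 8 tested at D15 (all genes 18.1% and 12.9%). Slc7a11, the cystine importer that supplies glutathione synthesis, went from 0.313, 0.354, 0.570 and 0.471 CPM in control to 75.9, 126, 48.9 and 91.4 CPM in EAM hearts. At D21 it was at 15.4, 7.79, 1.27 and 27.8 CPM in EAM against 0.356, 0.288, 0.219 and 0.461 CPM in control hearts, the only induced gene of the 8 lists on that day, when 4.13% of all genes were induced (log2 5.33 ± 0.91 SE, FDR = 0.00695). At D15 its log2 change was 7.67 ± 0.40 (SE, FDR = 3.06e-07). The leucine transporter genes Slc7a5 and Slc3a2 rose at D15 by 1.46 ± 0.14 (SE) and 1.45 ± 0.11 (SE) on the log2 scale (FDR = 1.59e-05 and 2.87e-06).

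Of 16 genes of serine, one-carbon and amino acid synthesis, 5 were induced and 2 repressed at D15 (all genes 18.1% and 12.9%), with a median log2 change of 0.010. Mthfd1l, which works beside Mthfd2 in mitochondrial one-carbon metabolism, rose from 1.19 ± 0.189 to 23.2 ± 4.11 CPM (SD, n = 4; log2 4.32 ± 0.18 SE, FDR = 7.20e-08). The serine synthesis enzymes Phgdh and Psat1 rose by 2.39 ± 0.30 (SE) and 1.77 ± 0.14 (SE) on the log2 scale (FDR = 7.68e-05 and 4.40e-06), and Pycr1 of proline synthesis by 2.01 ± 0.31 (SE, FDR = 2.54e-04). The aminotransferase genes Gpt2 and Got1 were repressed (-1.28 ± 0.19 SE and -1.27 ± 0.19 SE; FDR = 2.04e-04 and 2.43e-04). At D21, Aldh1l2, another mitochondrial folate enzyme, was repressed (-1.15 ± 0.19 SE, FDR = 0.00669). It was not called with the replicate block, nor when a control, EAM replicate 1 or EAM replicate 2 was left out.

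The cytosolic tRNA synthetases, which ATF4 also drives, had 1 induced of 18 at D15 (all genes 18.1%), Wars (1.21 ± 0.13 SE, FDR = 2.64e-05), a gene that interferon-gamma also induces, and a median of 0.20. Of 23 genes of the ER chaperone and unfolded protein response list, 11 were induced and 0 repressed at D15 (all genes 18.1% and 12.9%), with a median of 0.88. The largest were Sdf2l1 (2.38 ± 0.12 SE), Edem1 (2.28 ± 0.077 SE) and Sec61b (1.78 ± 0.10 SE), with FDRs of 3.01e-07, 2.61e-08 and 5.04e-07. Xbp1, the transcription factor of the parallel ER stress branch and of antibody-secreting cells, went from 102 ± 2.91 to 199.8 ± 10.6 CPM (SD, n = 4; log2 1.004 ± 0.061 SE, FDR = 8.21e-07), while Ern1, which encodes the sensor that splices it, rose by 0.55 ± 0.071 (SE, FDR = 9.56e-05). Hspa5 itself, at 0.38, lay below the median of this list.

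Mitochondrial chaperones and proteases moved downward at D15, with 0 induced and 2 repressed of 9 (all genes 18.1% and 12.9%) and a median of -0.86. Dnaja3 and Clpx were the 2 called (-1.27 ± 0.15 SE and -1.12 ± 0.19 SE; FDR = 5.05e-05 and 4.34e-04). All 8 that passed the FDR limit were lower, beside 31.1% of all genes. In the same hearts, counts from genes of the mitochondrial genome made up 3.19 to 4.31% of the library in EAM and 6.10 to 7.14% in control hearts, and 7 of 10 cardiomyocyte markers were called repressed. Of the 7 receptor genes for GDF15 and FGF21, 4 were tested and none was called at D15 (all genes 18.1% and 12.9%). Gfral, the GDF15 receptor of the brainstem, had 0 reads in all 24 hearts, Klb had 43 reads over the 4 D15 EAM hearts and 22 over the controls, and Fgfr1 rose by 0.40 ± 0.073 (SE, FDR = 8.47e-04). At D21, Klb had 3 reads over the EAM hearts and 23 over the controls, while the 4 adipocyte markers summed to 0.166 to 5.88 CPM in EAM, with 1 of the 4 at 0, and 14.8 to 38.9 CPM in control hearts.

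**Figure D5:**
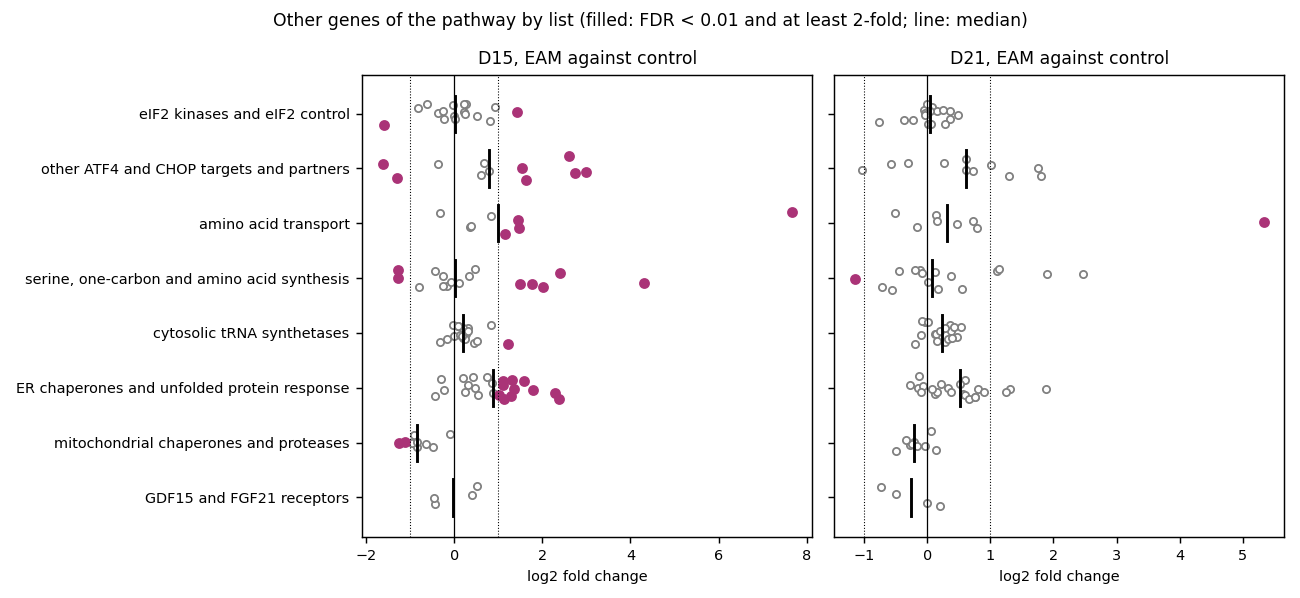
Log2 fold change of EAM against control hearts for every tested gene of the 8 other lists at D15 (left) and D21 (right); filled points were called at FDR under 0.01 with at least 2-fold, open points were not, dotted lines mark 2-fold and the black bar is the median of the list. At D15 the ER chaperone and amino acid transport lists have medians of 0.88 and 0.99 and the mitochondrial chaperone list -0.86; at D21 the called genes are Slc7a11 and Aldh1l2.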

How the data were processed

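Mouse hearts were profiled by 75 bp paired-end RNA-seq with a strand-keeping kit. The authors aligned reads to GRCm38 with HISAT2 2.0.4, removed duplicates with Picard and deposited raw counts per gene from featureCounts on an Ensembl annotation; whether counting used strand is not stated in the sources consulted here. Counts of 24 samples were used as deposited, and 92 spike-in features, with 0 reads, were left out. Genes reaching 10 reads in 4 or more of 8 samples were tested per time point with edgeR 4.0.16 (TMM, quasi-likelihood test, Benjamini-Hochberg FDR; R 4.3.3). Differences between time points came from 1 fit of 6 groups. DESeq2 1.42.0 and other settings were alternatives. Test scripts were tested on simulated data. RPKM used GENCODE M21 exon lengths. Library totals of 15814863 to 24980864 counts set the precision.

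The members and gene lists were chosen with earlier results of these data known. All members were named, and of each other pathway list and day the called genes with the largest changes, up to 3 each way, plus Atf3, Ppp1r15a, Eif2ak2, Xbp1, Ern1, Phgdh, Psat1, Sesn2, Gfral, Klb and Fgfr1 whatever their values; Ptprc and Myh6 stand for leukocytes and cardiomyocytes. The p-values measure only the spread between these samples, since the labels do not say what the replicate number marks. The correlation of the deviations of same-numbered EAM and control samples exceeded 0.1 for all 4 numbers at D21 (0.107, 0.181, 0.316 and 0.258), for 2 of 4 at D10 (0.383, -0.0889, -0.100 and 0.430) and for 0 of 4 at D15 (-0.106 to 0.0427). By the rule that all must exceed 0.1, only the D21 numbers could be read as pairs. Replicate 1 there did not correlate best with its own number, and equal D21 numbers carry different library codes in EAM and control hearts. The main tests were unpaired at every time point, and the replicate block was an alternative setting at D10, D15 and D21 alike.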

Additional observations from a re-analysis of the deposited data

Results flagged for a closer look

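In 60 groups of 4 hearts, 6 held a heart that stood apart by Dixon's 95% limit of 0.829, where chance alone flags about 1 group in 20. Atf5 was highest in replicate 2 of the D21 controls at 100.3 CPM and lowest in replicate 4 of the D21 EAM hearts at 79.8 CPM. Chac1 was lowest in replicate 3 of the D15 EAM hearts at 4.05 CPM. Fgf21 stood apart in replicate 1 of the D15 controls at 0.0521 CPM, which is 1 read beside 0 in the other 3. Hspa5 was highest in replicate 1 of the D10 EAM hearts at 1079 CPM, the heart with the most Ptprc of its group, and in replicate 4 of the D21 EAM hearts at 931 CPM, likewise the heart with the most Ptprc.

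The effect of EAM differed between time points for Atf5 and Ddit3 past the FDR limit in edgeR's quasi-likelihood test, with changes under 2-fold. Atf5 differed by -0.54 on the log2 scale from D10 to D15 (FDR = 0.00198) and by 0.51 from D15 to D21 (FDR = 0.00308). Ddit3 differed by 0.75 from D15 to D21 (FDR = 0.00212). Both comparisons of adjacent times use the D15 hearts, so the Atf5 values are not independent of each other. The differences from D15 to D21 also carry the other library code of the D21 EAM hearts, from which they cannot be told apart.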

How the results depend on the processing

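The 3 members called at D15 (Asns, Mthfd2 and Gdf15) were the same genes with DESeq2, edgeR's likelihood ratio test, RLE size factors, total counts, no filter on low counts, all 24 samples in 1 fit, the replicate block and each of 8 libraries left out. At FDR under 0.05 with no fold limit, 6 members passed at D15 and 7 at D21. Between time points 2 passed for D15 minus D10, 2 for D21 minus D15 and 1 for control hearts D21 minus D10. Of the 106 other pathway genes tested, 61 were higher and 25 lower at D15, 86 in all, beside 38.1% and 36.4% of all genes. At D21, 31 were higher and 7 lower, 38 in all, beside 18.5% and 13.8%. At D21, DESeq2 and the likelihood ratio test each called 5 members and 13 other pathway genes, and the shares of all genes called by each test stand beside the members in the comparison at D21. There 4 pathway genes were called without the filter (3 higher, 1 lower), beside 3.54% of all genes higher and 0.832% lower. With all samples in 1 fit 11 were called (9 higher, 2 lower), beside 9.28% and 2.73%. DESeq2 called 1 pathway gene at D10, 1 member for D15 minus D10 and 1 for control hearts D21 minus D10. With the replicate block, 1 member (Asns) passed for D15 minus D10 in place of 0, and 3 pathway genes in place of 2 were called at D21, while Ddit3, Mthfd2 and Gdf15 were called at D21 as without it. The block called 7.89% of all genes higher and 6.76% lower for D15 minus D10, and 3.94% of all genes higher and 0.897% lower at D21. Ddit3 was not called at D21 without the filter or with all samples in 1 fit, where Asns was. The block also took Hspa5 at D15 (FDR = 0.0212), Atf4 at D21 (0.0199) and, for D21 minus D15, Atf5 (0.0102) and Ddit3 (0.0125) above the FDR limit of 0.01, as 1 fit of all samples took Hspa5 at D15 (0.0108). Comparisons of control hearts could not be fitted with the block.

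Log2 changes near 0 reversed. The effect on Atf5 at D10 was 0.0092 with DESeq2, 0.0094 with RLE, 0.050 with total counts, 0.0082 without the filter and 0.011 with all samples in 1 fit, and at D21 -0.019 and -0.016 without the filter and with 1 fit. Ppp1r15a at D21 was -0.0096 and -0.0070 with the same pair, and Fgfr1 at D21 was 0.0072 with total counts. For D15 minus D10, Trib3 was 0.0055 with DESeq2 and 0.11 with total counts, and Hspa5 0.012 and 0.10. Between control hearts, Ddit3 D15 minus D10 was 0.0065 with total counts; for D21 minus D10, Atf5 was -0.013 and Mthfd2 -0.014 with DESeq2, and Trib3 0.049 with total counts and 0.0010 without the filter. The causes were not tested.

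Leaving out 1 library at a time gave 0 to 6 members and 0 to 14 other pathway genes called at D21. The highest D21 counts came without EAM replicate 3, beside 9.78% of all genes higher and 3.5% lower. For D15 minus D10 it gave 0 to 2 members. The log2 change ranged from -0.050 to 0.057 for Atf5 and -0.12 to 0.42 for Eif2ak2 at D10. At D21 it ranged from -0.025 to 0.055 for Atf5, -0.082 to 0.11 for Ppp1r15a and -0.065 to 0.022 for Fgfr1. For D15 minus D10 it ranged from -0.033 to 0.14 for Ddit3, -0.14 to 0.054 for Hspa5 and -0.12 to 0.12 for Trib3. For D21 minus D15 the ranges were -0.17 to 0.039 for Hspa5 and -0.56 to 0.054 for Mthfd2. Between control hearts they were -0.089 to 0.049 for Ddit3 and -0.012 to 0.12 for Trib3 (D15 minus D10), and -0.042 to 0.030 for Atf5, -0.0071 to 0.045 for Ddit3, -0.048 to 0.072 for Mthfd2 and -0.11 to 0.11 for Trib3 (D21 minus D10). The Fgf21 difference in mean CPM ranged from -0.044 to 0.013 at D10 and from 0.087 to 0.16 at D21, where the exact test of 3 against 4 hearts cannot give a p under 0.0571, taken as 2 times the smaller one-sided p. Of 1028 such values 944 kept direction and side of the threshold, and of 762 under other settings 691 did. Depth limits Fgf21, with at most 5 reads in a heart.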
